A study of Rattus norvegicus with 6 samples.

Results

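The 5 genes Myl1, Myl2, Myl3, Myl4 and Myl7, which encode myosin light chains of striated muscle, were examined in the rat heart primordium before and after the first heartbeats. They were found by gene name among 16562 gene names on the array, and each was represented by 1 probe. Heart primordia were taken on embryonic day 10 from rats that the labels call "Wister", with no mutation or treatment in either group. The pre-heartbeat group (primordia with a flat centre) and the post-heartbeat group (primordia with a raised centre, from embryos with somewhat more somites) each had 3 samples, with 1 one-color array per sample. Shape and somite number stood in for beating, so time and beating cannot be told apart. The number of embryos behind an array is not given in the sources used here, and p values measure the spread between these samples.

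A myosin motor of the sarcomere has heavy chains that pull on actin and light chains that wrap the neck of each heavy chain. Essential light chains stiffen the neck, and regulatory light chains are phosphorylated by myosin light chain kinases, which tunes force. In the adult heart, MYL2 is the regulatory chain of the ventricle and MYL7 that of the atrium, whereas MYL3 is the essential chain of the ventricle and slow muscle, and MYL4 that of the atrium and of fetal muscle. MYL1 is the essential chain of fast skeletal muscle. In the early heart tube, chamber chains are known to be expressed together before they are restricted.

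The probes are shown because every value below is the signal of 1 of these 60-base sequences, written in lower case with no part marked.
Myl1: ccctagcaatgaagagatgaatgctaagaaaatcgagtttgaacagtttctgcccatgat
Myl2: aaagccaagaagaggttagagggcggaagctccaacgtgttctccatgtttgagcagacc
Myl3: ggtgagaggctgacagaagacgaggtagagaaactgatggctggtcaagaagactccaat
Myl4: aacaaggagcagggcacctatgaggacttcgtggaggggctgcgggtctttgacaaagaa
Myl7: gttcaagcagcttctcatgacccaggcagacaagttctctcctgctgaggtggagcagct
On the rn4 genome, the array annotation placed the Myl2 probe on chr12:35663794-35663853 on the minus strand, within 60 contiguous bases. The probes of Myl1 (chr9:65719604-65722502, minus), Myl3 (chr8:115145098-115146213, plus) and Myl7 (chr14:86568278-86568683, minus) spanned 2899, 1116 and 406 bases, so each lay across at least 1 intron of its gene. The annotation gave no position for the Myl4 probe. The longest run of bases that a member's probe shared with the probe of any gene outside the members was 14 bases for Myl1 and 13 for each of the others.

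Myl2 rose after heartbeat initiation by 11-fold, and its log2 difference ranked 1 of 19299 tested probes. The other 4 light chains had higher means after heartbeat initiation, without passing the adjusted threshold of 0.05. The rise was 2.33-fold for Myl3, 1.99-fold for Myl4 and 1.53-fold for Myl7. No fold is given here for Myl1, whose pre-heartbeat signals were not well above background. All 5 probes passed the filter on low signals, 4 of them well above background on every array and Myl1 through the post-heartbeat group alone. Thus 1 of 5 members was called higher in limma, where 0.119% of all tested probes were called higher. The difference was above 0 for Myl2, Myl3, Myl4 and Myl7, as for 44.7% of the tested probes. For these genes every post-heartbeat array lay above every pre-heartbeat array, as it did for 5.38% of the tested probes. Myl1 did likewise, but is left out of this comparison, as it was tested only through the group in which it was high. For each of the 5 genes the two-sided exact permutation p was 0.1, the smallest that 3 against 3 arrays allow. In bulk tissue, fewer cells of a type and less RNA per cell cannot be told apart. Signals are given below as log2 units above or below the 75th percentile of each array, so that 0 is the level that 75 percent of spots do not exceed, and levels of different probes are not compared.

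**Figure D1:**
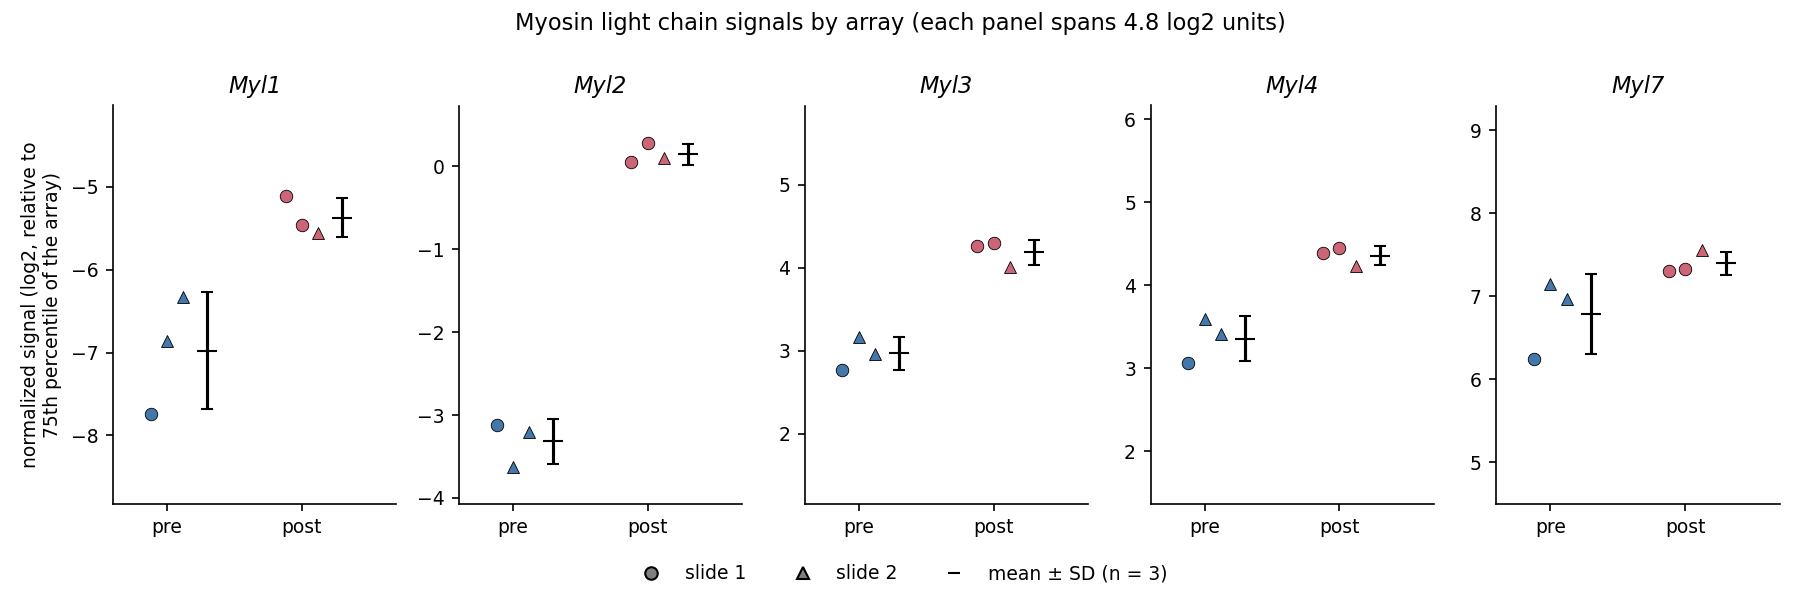
Normalized log2 signal of each light chain on each array, with 3 pre-heartbeat and 3 post-heartbeat samples (circles, slide 1; triangles, slide 2) and the mean ± SD beside them. Every panel spans the same number of log2 units, and the 2 groups are apart in each, most widely for Myl2 (-3.32 against 0.14).

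Among the regulatory chains, Myl2 had log2 signals of -3.12, -3.62 and -3.21 on pre-heartbeat arrays 1, 2 and 3, and of 0.05, 0.29 and 0.09 on the post-heartbeat arrays. All 3 pre-heartbeat arrays were far below the 75th percentile and all 3 post-heartbeat arrays just above it. The means were -3.32 ± 0.27 and 0.14 ± 0.13 (SD, n = 3), a log2 difference of 3.46 with an SE of 0.18 (limma adjusted p = 0.00451). In intensity units before normalization, Myl2 went from 194.6, 93.3 and 160.7 to 1309, 1721 and 1815. The difference was 3.29 within slide 1 and 3.51 within slide 2, and 3.40 with slide as a blocking factor (adjusted p = 0.000701). Leaving out pre-heartbeat array 3, post-heartbeat array 1 or post-heartbeat array 2 moved the limma adjusted p over the threshold, to 0.0568, 0.0647 and 0.0546, with log2 differences of 3.51, 3.51 and 3.39.

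Myl7, the regulatory chain of the atrium, had log2 signals of 6.24, 7.15 and 6.97 before and of 7.31, 7.32 and 7.55 after heartbeat initiation. Pre-heartbeat array 1 stood lowest, and pre-heartbeat array 2 came close to the lowest post-heartbeat arrays. The means were 6.79 ± 0.48 and 7.40 ± 0.14 (SD, n = 3), and the log2 difference of 0.61 (SE 0.25) did not pass the limma threshold (adjusted p = 0.692). Without pre-heartbeat array 1 the difference was 0.34 (limma adjusted p = 0.391). With slide as a blocking factor it was 0.79 (adjusted p = 0.0744). Its brightest spot reached 42.6% of the scanner's saturation value, so no spot of the gene was saturated.

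Among the essential chains, Myl3 had log2 signals of 2.77, 3.17 and 2.97 before and of 4.26, 4.30 and 4.01 after heartbeat initiation. The lowest post-heartbeat value stood clear of the highest pre-heartbeat value. The difference was 1.22 (SE 0.16, limma adjusted p = 0.0688), between means of 2.97 ± 0.20 and 4.19 ± 0.15 (SD, n = 3). It passed the threshold with slide as a blocking factor (1.22, adjusted p = 0.0182).

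Myl4 had log2 signals of 3.07, 3.60 and 3.42 before and of 4.39, 4.45 and 4.23 after heartbeat initiation. Pre-heartbeat array 1 was again the lowest, and the post-heartbeat arrays lay close together. The means were 3.36 ± 0.27 and 4.36 ± 0.11 (SD, n = 3), with a log2 difference of 1.0 (SE 0.18, limma adjusted p = 0.116). With slide as a blocking factor the difference was 1.04 (adjusted p = 0.0324).

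Myl1, the fast skeletal chain, had log2 signals of -7.74, -6.86 and -6.34 before and of -5.11, -5.47 and -5.55 after heartbeat initiation. Its spots were not well above background on any of the 3 pre-heartbeat arrays, and were well above background on all 3 post-heartbeat arrays. Its fold is therefore uncertain. It was 2.69 where each pre-heartbeat array entered with the higher of its lowest signal well above background and its own Myl1 signal. That value is not taken as a lower limit, as the normexp difference below, which depends on its offset, was smaller. The log2 difference of the processed signal was 1.6 (limma adjusted p = 0.194). The probe was tested only because of the group in which it was high, so its difference lends no support to the others. The intensities were 9.0, 11.8 and 18.3 before and 36.9, 32.0 and 36.6 after, and its 2 spots differed by up to 1.78 on the log2 scale on an array. With a normexp background correction (offset 50) the log2 difference was 0.27, against 1.6 from the processed signal. That offset was larger than every Myl1 intensity above, and an added offset shrinks a difference between low signals.

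The arrays lay on 2 slides, scanned separately, with pre-heartbeat array 1 and post-heartbeat arrays 1 and 2 on slide 1 and the others on slide 2. The first principal component of all tested probes, with 60.3% of the variance, separated the slides. With slide as a blocking factor, Myl2, Myl3 and Myl4 passed the threshold and Myl7 did not, where 1.16% of tested probes were called higher. Myl1 passed as well, but it was tested only through the group in which it was high. The difference was above 0 within each slide for all 5 genes. It was larger within slide 1 than within slide 2 for Myl1 (2.45 and 1.04), Myl3 (1.5 and 0.95), Myl4 (1.35 and 0.72) and Myl7 (1.07 and 0.50). Within a slide there were only 3 arrays, and these differences between slides were not tested. The selection in the study's methods takes a fold of at least 1.5 and an unadjusted p under 0.05. It took Myl2, Myl3 and Myl4 but not Myl7, where 1.89% of tested probes were selected as higher. Myl1 was selected as well, with the limit named above.

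**Figure D2:**
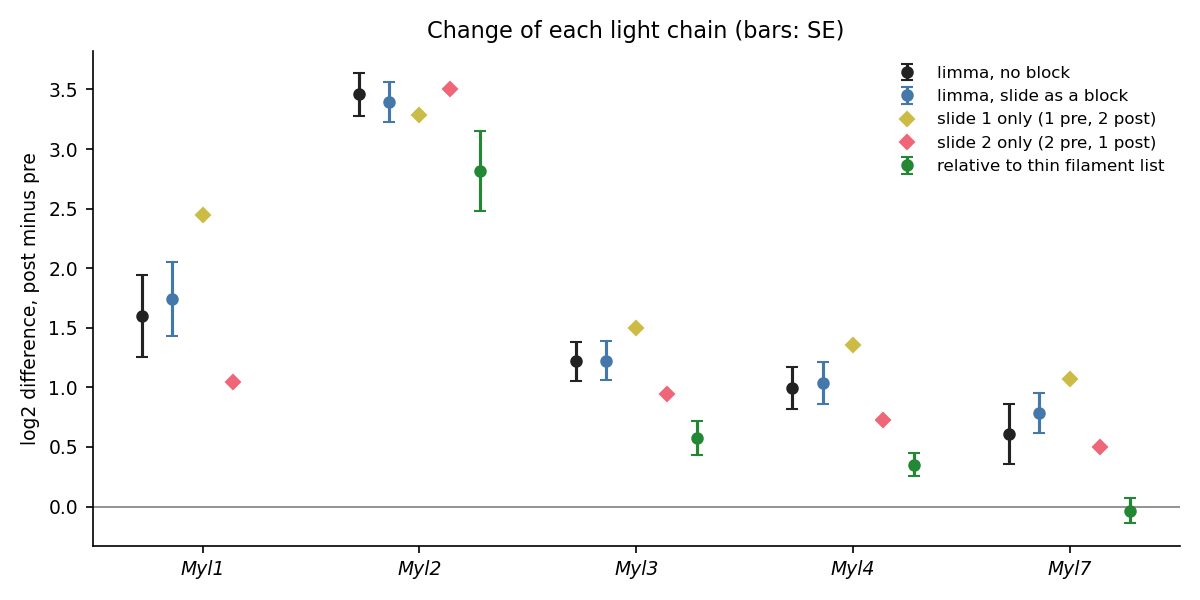
Log2 difference (post minus pre) of each light chain in limma without a block, with slide as a blocking factor, within each slide, and relative to the mean of 8 thin filament genes (not for Myl1, whose pre-heartbeat signals were not well above background), with bars for the SE where one could be computed. Myl2 is highest in every reading (2.81 to 3.51), and Myl7 relative to the thin filament lies at -0.03.

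Changes of different chains were compared within arrays for 10 pairs. The 6 pairs without Myl1 are given, since its pre-heartbeat signals were not well above background. The groups were apart for 4 of these 6, and no share for pairs of other probes is given here. Each of the 4 had an exact permutation p of 0.1 (adjusted 0.167 over the 10 pairs). That p is the smallest possible, so no pair could pass the threshold. The change of Myl2 exceeded that of Myl3 by 2.24 (SE 0.28), of Myl4 by 2.46 (SE 0.31) and of Myl7 by 2.85 (SE 0.43) on the log2 scale. The changes of the essential chains Myl3 and Myl4 differed by 0.22 (SE 0.06). For Myl7 against Myl3 and Myl4 the groups overlapped (exact permutation p = 0.2 for both).

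Changes were also read against 8 thin filament genes (actins, troponins and tropomyosin of cardiac muscle), whose mean log2 signal was 3.62 to 4.27 before and 4.56 to 4.69 after heartbeat initiation. Relative to this mean, Myl2 was higher by 2.81 (SE 0.34), Myl3 by 0.58 (SE 0.14) and Myl4 by 0.35 (SE 0.10). The groups were apart for these 3 genes, and the share of all tested probes that were apart on this measure is not given here. Each had an exact permutation p of 0.1, the smallest possible. Myl7 differed by -0.03 (SE 0.11, exact permutation p = 0.8), with overlapping groups. Its sign turned without pre-heartbeat array 2, pre-heartbeat array 3 or post-heartbeat array 2 (0.0084, 0.011 and 0.015). The single thin filament genes changed by -0.17 (Tpm2) to 1.39 (Tnni3), and the changes of Myl3 (1.22) and Myl4 (1.0) lay within that range.

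**Figure D3:**
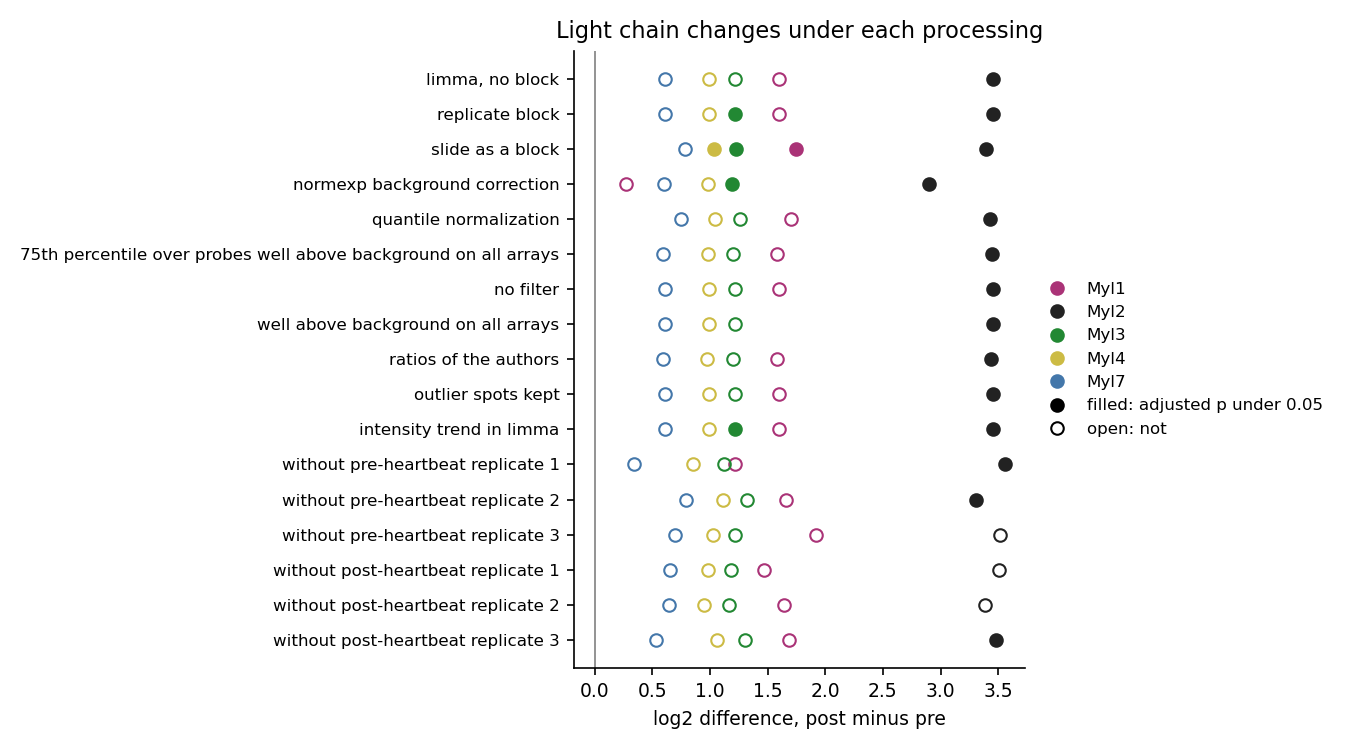
Log2 difference of each light chain under each processing fitted with limma, with filled points where the adjusted p was under 0.05. Myl2 stays between 2.90 and 3.56, and Myl1 falls to 0.27 with normexp, whose offset of 50 was larger than its intensities.

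Upstream sequence is shown for the members whose RefSeq window (GRCr8 build, 250 bases before the start) held the rarer motifs searched, with the motif in capitals. The table matched 4 of 5 members in 5 windows, and Myl2 had no entry.
Myl3, chr8:119616844-119617093, plus strand: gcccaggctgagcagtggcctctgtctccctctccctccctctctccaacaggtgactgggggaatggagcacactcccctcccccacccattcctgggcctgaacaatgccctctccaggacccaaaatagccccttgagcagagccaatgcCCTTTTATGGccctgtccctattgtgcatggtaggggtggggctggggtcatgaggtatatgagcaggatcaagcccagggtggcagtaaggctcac
Myl1, chr9:75897800-75898049, minus strand: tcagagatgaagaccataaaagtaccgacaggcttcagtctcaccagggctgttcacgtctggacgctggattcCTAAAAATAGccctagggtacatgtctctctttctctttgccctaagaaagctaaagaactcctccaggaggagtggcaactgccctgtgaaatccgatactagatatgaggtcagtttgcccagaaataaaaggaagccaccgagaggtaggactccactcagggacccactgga
The capitals mark a CArG box, the element bound by serum response factor, at -97 to -88 relative to the start of Myl3, and a MEF2 site at -176 to -167 relative to the second start of Myl1. On both strands, 1.5% of 33469 windows of the same length held a CArG box and 2.96% a MEF2 site. The E-box CANNTG was in the windows of all 4 members and in 65.5% of all windows. A match says only that the letters are there.

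Of 11 other light chain names listed, 7 matched the array through its gene names or current names. They stood for 6 gene names on the array, all tested, and none was called without a block. Of these, 2 had an unadjusted limma p under 0.05, as had 7.01% of all tested probes. With slide as a blocking factor, Myl9, the smooth muscle regulatory chain, and Mylpf, the fast skeletal regulatory chain now named Myl11, passed the threshold. Mylpf had log2 signals of -2.17, -2.0 and -2.07 before and of -1.02, -0.83 and -1.24 after, a difference of 1.05 (limma adjusted p = 0.0823), or 1.02 with slide blocked (adjusted p = 0.0249). Myl9 had log2 signals of 2.07, 2.37 and 2.36 before and of 2.88, 3.12 and 3.14 after, a difference of 0.78 (limma adjusted p = 0.164), or 0.85 with slide blocked (adjusted p = 0.0310). Both genes had groups that were apart. The chains of non-muscle cells lay near 0, at 0.21 for Myl12b, 0.04 for RGD1309537 (Myl12a) and 0.00 for Myl6, with 0.02 for Myl6l, which RefSeq lists as a synonym of Myl6. The median over the 6 names was 0.13, or 0.21 over 5 genes without Myl6l. It was 1.22 for the 5 members, Myl1 included, and -0.02 for all tested probes with a symbol.

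The 14 kinase, phosphatase and calmodulin genes that act on light chains had a median of 0.02 and 7 genes above 0. None was called by limma with or without slide as a blocking factor. Without a block, 1 of the 14 had an unadjusted limma p under 0.05, beside 7.01% of all tested probes. That gene was Dapk3, a kinase of regulatory light chains, with a difference of 0.91 (limma adjusted p = 0.620). Mylk3, the cardiac light chain kinase, differed by 0.26 (limma adjusted p = 0.866).

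Of 10 sarcomeric heavy chains, 7 were tested, with a median of 1.11. None was called by limma without a block, where 6 had an unadjusted p under 0.05, as had 7.01% of all tested probes. With slide as a blocking factor 4 were called higher and 1 lower, against 1.16% and 0.461% of all tested probes. Myh7, the slow and ventricular heavy chain, differed by 1.19 in that fit (limma adjusted p = 0.0223), and Myh6, the atrial heavy chain, by 1.06 (adjusted p = 0.0324). Myh8 (1.27) and Myh13 (1.22) were the others called higher. Heavy chains are near-identical in long stretches, so the value of a single heavy chain is uncertain. Myh7b differed by 1.20 without a block and was called in neither fit. Myh15 was well above background on all 3 pre-heartbeat and on none of the post-heartbeat arrays.

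Of 14 genes that bind or fold myosin, 11 were tested, with a median of 0.59. None was called by limma without a block, where 6 had an unadjusted p under 0.05, as had 7.01% of all tested probes. With slide as a blocking factor 5 were called higher, against 1.16% of all tested probes. They were, with their differences in that fit, Mybpc3 (1.12), the cardiac myosin binding protein C, Mybphl (1.37), Myom1 (1.0) of the M-band, the myosin chaperone Unc45b (0.98), and Mybph, which was not well above background on any pre-heartbeat array. Smyd1 differed by 0.59 without a call. Of the 4 non-muscle and smooth muscle heavy chains, Myh11 alone was called with slide as a blocking factor (1.02), against 1.16% of all tested probes. None was called by limma without a block, where 1 had an unadjusted p under 0.05, beside 7.01% of all tested probes.

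**Figure D4:**
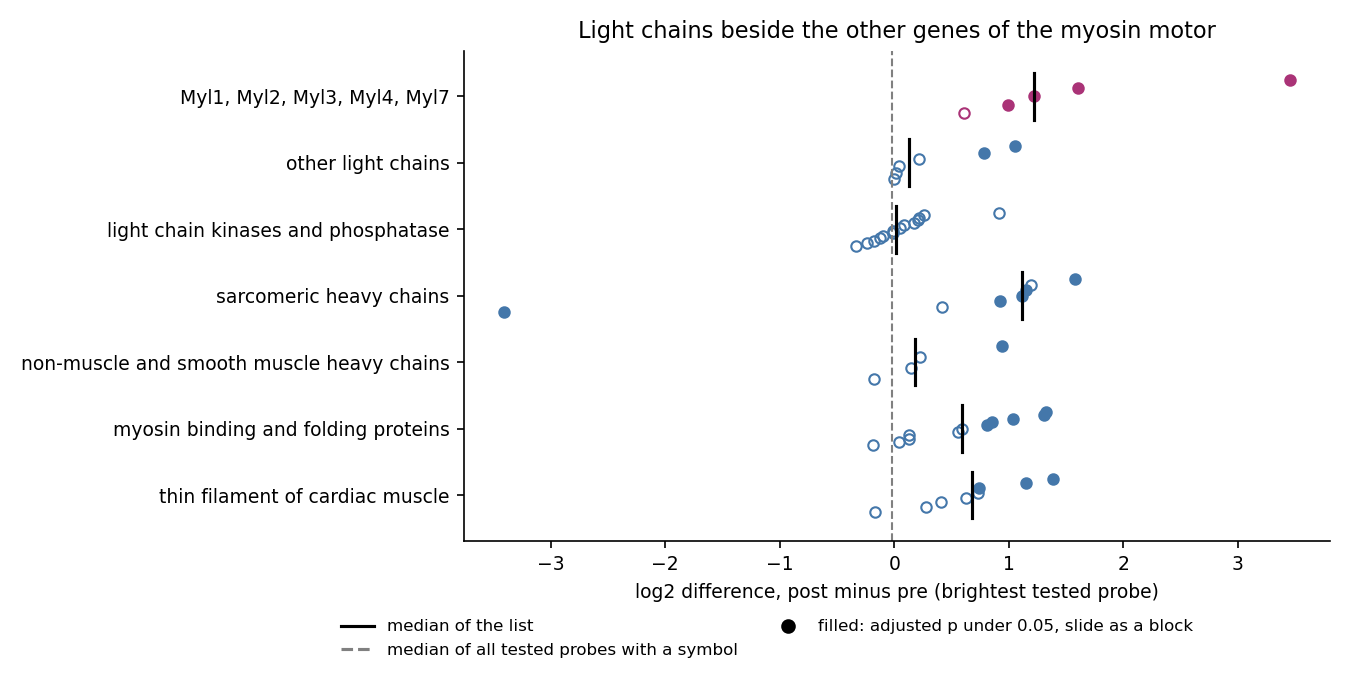
Log2 difference (post minus pre) of each tested gene in 7 lists around the light chains, with filled points called with slide as a blocking factor and black bars at the median of the list. The medians are 1.22 for the 5 members, 0.13 for the other light chains and 0.02 for the kinases, against -0.02 for all tested probes with a symbol (dashed). The median of the members includes Myl1, which was tested only through the group in which it was high.

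Of the 8 thin filament genes, Tnni3, the adult cardiac troponin I, was called higher without a block (1.39, limma adjusted p = 0.0423). In that fit 0.119% of all tested probes were called higher. With slide as a blocking factor 3 were called higher, Tnni3, Acta1 (1.25) and Tpm1 (0.84), against 1.16% of all tested probes. Tnnc1 differed by 0.63 and Tnni1 by 0.73 without a call. Among 14 tested regulators and markers of the chambers, Nppa (1.84, limma adjusted p = 0.0199) and Nppb (1.40, limma adjusted p = 0.0423) were called without a block. They are the natriuretic peptides of working muscle, and 0.119% of all tested probes were called higher in that fit. With slide as a blocking factor both peptides and Irx4 (1.18), a ventricular regulator, were called higher, against 1.16% of all tested probes. Irx2 (1.32) and Tbx5 (0.45) were not called, nor was any of 12 cardiac regulators by limma. Among those 12, Tbx2 (1.46) alone had an unadjusted limma p under 0.05, beside 7.01% of all tested probes.

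Markers of other cells were read beside the light chains, and their part in the result was not tested. The mean log2 signal of 12 cardiac muscle markers was 2.75 to 3.27 before and 3.72 to 3.81 after heartbeat initiation, and the groups did not overlap. That of 6 smooth muscle markers was -0.05 to 0.15 before and 0.83 to 1.04 after. With slide as a blocking factor 5 of the 6, Myl9 among them, were called higher, against 1.16% of all tested probes. None of the 6 was called without a block. The mean log2 signal of 9 tested skeletal muscle markers was -2.76 to -2.50 before and -2.37 to -2.09 after. Of these, 6 of 9 genes were above 0, among them Tnnc2 (1.13), Mylpf (1.05), Ckm (0.97) and Tnni2 (0.70). Below 0 were Actn3 (-0.90), Tnnt3 (-0.40) and Myog (-0.02). With slide as a blocking factor 3 of the 9 were called higher, against 1.16% of all tested probes, and none without a block. Myod1 and Myf6, regulators of that lineage, were not well above background on any array, and Myog and Myf5 were on all 6. The groups overlapped for 8 endothelial markers (-1.26 to -0.82 before and -1.26 to -0.98 after), of which 2 had a difference above 0. Kdr had a difference of -0.55 and Tie1 of 0.50, and neither was called. The groups also overlapped for 6 endoderm markers (0.73 to 1.13 and 0.45 to 0.87), 5 erythroid markers (-2.64 to -1.94 and -2.37 to -1.93) and 6 second heart field markers (-2.82 to -1.59 and -2.82 to -1.63). They were apart for 3 paraxial mesoderm markers, higher after (0.08 to 0.41 and 0.46 to 0.69), and for 3 neural markers, lower after (-1.53 to -1.09 and -2.24 to -1.69). Of the neural markers, Otx2 (-1.56) was called lower without a block, as were 0.0207% of all tested probes. Pax2 (-0.23) and Sox2 (-0.21) were not called. Against the mean of the 12 cardiac muscle markers, Myl2 was higher by 2.74, Myl3 by 0.51 and Myl4 by 0.28, and Myl7 differed by -0.10. The single cardiac muscle markers changed by -0.03 (Ryr2) to 1.84 (Nppa).

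The genes most like each chain across the 6 arrays, among 2521 whose values spanned at least 1 log2 unit, were found by Pearson correlation, as a description with no test since the 2 groups and slides are shared. For Myl2 they were Atp2a1 (r = 0.996), Casq1 (r = 0.994) and Rrad (r = 0.993). The first encodes a calcium pump and the second a calcium store protein of the sarcoplasmic reticulum. For Myl3 they were Cnn1 (0.998), Tesc (0.993) and Mylpf (0.991), and for Myl4 they were Prg2 (0.993), Acta1 (0.992) and Tagln (0.990). For Myl7 they were Palld (0.990), Cd9 (0.985) and Actc1 (0.983), and for Myl1 they were Gpr146 (0.983), Tbc1d10c (0.982) and Hspb7 (0.978). Between members, r was highest for Myl3 and Myl4 (0.992) and lowest for Myl2 and Myl7 (0.677).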

How the data were processed

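Total RNA of heart primordia was labeled with cyanine 3 and hybridized to 1-color Agilent rat arrays. The authors quantified spots with Agilent Feature Extraction 10.7.3.1, and the deposited values used here are its processed signals, an intensity with the background subtracted and not normalized between arrays. A ratio per probe was deposited as well, shifted to the 75th percentile and divided by a baseline, which served as an alternative.

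Control spots and outlier spots (324 to 545 per array) were left out, the 75th percentile (1146 to 1702 intensity units) was subtracted from each array on the log2 scale, and spots of a probe were averaged. Probes with at least 50 percent of spots well above background on all 3 arrays of a group were tested, which left 19299 of 30367. Of these, 2 lacked a value on at least 1 array. No spot was saturated (0). Of all probes, 18006 (59.3%) had a current name through their transcript. The number of arrays limits the precision. Groups were compared with limma 3.58.1 in R 4.3.3 (data.table, version 1.17.8), with Benjamini-Hochberg adjustment over all tested probes and a threshold of 0.05. Single values were compared by a two-sided exact permutation test (10 possible splits). Lists were described by counts and medians, with the brightest tested probe for each gene. Named outside the members were all other light chains, the genes of the lists that were called or had an unadjusted p under 0.05 (1 of them is not reported here), and the 3 genes most correlated with each member. Mylk3, Otx2, Pax2, Sox2, Myod1, Myf6, Myog, Myf5, Actn3, Tnnt3, Tnnc2, Ckm, Tnni2, Kdr, Tie1, Tpm2 and Ryr2 were named after their values were seen. The members and lists were chosen with earlier results of these data known. The fits were tested on simulated data. Alternatives were the slide or replicate number as a block, normexp (offset 50), quantile normalization, other filters and percentiles, outlier spots kept, the ratios, an intensity trend, the methods' test and leaving out each array. Figures were drawn with matplotlib 3.10.9 in Python 3.11.15.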

Additional observations from a re-analysis of the deposited data

How the results depend on the processing

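The log2 differences of the 5 light chains were above 0 in all 89 values computed under the alternatives. The replicate block, the filters, the intensity trend and the methods' test and selection could change only the p value, not the difference. Keeping outlier spots did not change it for these genes. The values also reuse the same arrays, so they are not independent readings, and those of Myl1 share the limit named above. The deviations of same-numbered arrays correlated at 0.65, -0.28 and 0.49, and not every array correlated best with its own number. The arrays numbered 1 and those numbered 3 shared a slide, and those numbered 2 did not. These values therefore cannot show whether the replicate numbers pair the arrays. With the replicate number as a block, 95 probes were called higher and 49 lower, and 2 members, Myl2 and Myl3 (1.22, adjusted p = 0.0343), against 23, 4 and 1 without it. With slide as a blocking factor the counts were 223, 89 and 4, with Myl1 at 1.75, Myl3 at 1.22 and Myl4 at 1.04 past the threshold. With normexp they were 43, 7 and 2 (Myl3 1.19), and with an intensity trend 38, 7 and 2 (Myl3 1.22). The higher count was 11 after quantile normalization and 10 from the ratios, and without a filter 1 probe was called higher and 0 lower. The methods' selection gave 365 higher, 222 lower and 4 members, with Myl1 (1.6), Myl3 (1.22) and Myl4 (1.0) selected. The methods' test after adjustment called 0 higher, 0 lower and 0 members, with Myl2 at 3.46 (adjusted p = 0.115), while 1319 probes had an unadjusted p under 0.05. The cause was not tested.

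Leaving out 1 array gave 0 to 1 probes higher, 0 to 1 lower and 0 to 1 members. Myl2 then lay between 3.30 and 3.56, with a limma adjusted p of 0.0214 to 0.0647, over the threshold without pre-heartbeat array 3 (0.0568), post-heartbeat array 1 (0.0647) or post-heartbeat array 2 (0.0546). Myl7 relative to the thin filament genes lay between -0.12 and 0.015, with its sign turned without pre-heartbeat array 2 (0.0084), pre-heartbeat array 3 (0.011) or post-heartbeat array 2 (0.015). Keeping probes well above background on all arrays left no value for Myl1, and averaging the probes of a gene changed nothing, as each member has 1. The Myl1 signal near background leaves its fold uncertain.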
